A study of Mus musculus with 24 samples.

Results

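The transcriptional coactivators YAP (*Yap1*) and TAZ (*Wwtr1*), the 4 TEAD transcription factors through which they act (*Tead1*, *Tead2*, *Tead3*, and *Tead4*), and 3 genes that they are known to activate (*Amotl2*, *Ankrd1*, and *Lats2*) were followed across 8 mouse astrocyte lines. These 9 genes were taken by name, and all 9 were among the 14427 genes of the deposited count table. RNA was sequenced from a p53 knockout line (KO) and from lines expressing the missense mutants R172H, Y202C, or Y217C of p53, each made in a male and in a female culture, with 3 libraries per line and 24 libraries in all. All lines came from cortical astrocytes of postnatal day 1 C57BL/6 pups carrying 1 floxed and 1 deleted *Trp53* allele (*Trp53* f/-), with the cells of several pups pooled into 1 culture of each sex. The KO lines received a lentivirus with Cre and a puromycin resistance gene, which deleted the floxed allele. The mutant lines first received a retrovirus carrying the mutant *Trp53* cDNA and eGFP, were sorted for eGFP, and then received the same Cre lentivirus and puromycin selection. Each mutant line was compared with the KO line of its own culture, which carried no retrovirus, so the mutant protein and the retroviral step cannot be told apart. Since there was 1 culture per sex, sex and culture cannot be told apart either, and the spread between libraries is that of repeated samples of 1 line.

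In the Hippo pathway the kinases MST1 and MST2 (*Stk4* and *Stk3*) activate LATS1 and LATS2, which phosphorylate YAP and TAZ and hold them in the cytoplasm. Unphosphorylated YAP and TAZ enter the nucleus, bind TEAD factors at DNA containing GGAATG or its complement CATTCC, and activate genes of proliferation, adhesion, and matrix. *Amotl2* and *Lats2* belong both to the targets and to the inhibitors, since angiomotin-like 2 holds YAP at junctions and LATS2 phosphorylates it, while *Ankrd1*, *Ccn1*, and *Ccn2* are the targets most often used as a readout. The activity of YAP and TAZ is set mainly by phosphorylation and location, which RNA levels do not show.

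Total counts per library ranged from 52787288 to 136503809, and the lowest count of any member in any library was 969. Values are counts scaled to the TMM-adjusted library size (CPM), and changes are log2 fold changes from edgeR's quasi-likelihood test with their standard errors (SE) and p-values adjusted by the Benjamini-Hochberg method over all 14427 genes, called at 0.05 or below. *Trp53* reads stood between 46.5 and 53.7 CPM in the KO libraries and between 572.5 and 3870 CPM in the mutant libraries. These levels separate KO from mutant libraries but do not show which mutation or sex a library carries. The mutant lines differed in *Trp53*, with line means of 593.1 CPM in female Y202C against 2323.7 CPM in male Y202C. For Y217C they were 3708.9 CPM in females and 1215.3 CPM in males, and for R172H 1955.6 and 2286.8 CPM. The RNAs that define astrocytes were unevenly present. All 8 astrocyte markers checked were in the table and summed to between 196.1 and 648.9 CPM, but *Gfap* did not exceed 8.37 CPM, *Aqp4* did not exceed 9.22 CPM, and both were at 0 in some libraries, while *Sox9* and *Gja1* were present in every line. *Slc1a3* had line means from 3.14 to 281.1 CPM, highest in female R172H, and *Aldh1l1* exceeded 1 CPM only in male Y217C, male Y202C, and female R172H, at 56.6, 28.4, and 14.9 CPM. The 8 markers of fibroblasts, meninges, and mural cells summed to between 10240 and 44860 CPM, mostly from the collagen genes *Col1a1*, with line means from 3361 to 21776 CPM, and *Col1a2*, with line means from 2457 to 15246 CPM. In bulk RNA, fewer cells of a type and less RNA per cell cannot be told apart.

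The DNA letters that TEAD factors bind were looked for in the promoters of the members, since the members include both the factors and genes known to be activated through them. RefSeq promoter windows on GRCm38.p6, from 250 bases before to 50 bases after each annotated start, were matched by symbol for 7 of the 9 members. GGAATG or CATTCC, which are the same site read on either strand, was present in a window of 6 of these 7 genes, against 14.7% of all 32851 windows and 14.6% of the 10290 genes of the count table with a window. The sites are printed 5′ to 3′ on the strand of the gene with the 6 matching bases in capitals. They lay upstream of all annotated transcripts in *Yap1* (chr9:8004712-8004757), *Wwtr1* (chr3:57576021-57576066), 1 window of *Tead3* (chr17:28350962-28351007), and the classic target *Ccn1* (chr3:145650063-145650108), and within an annotated exon of at least 1 transcript in *Amotl2* (chr9:102717729-102717754), *Ankrd1* (chr19:36120039-36120064 and chr19:36119952-36119977), and *Lats2* (chr14:57746104-57746129).
Yap1, minus strand: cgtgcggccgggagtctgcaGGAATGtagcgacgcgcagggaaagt
Wwtr1, minus strand: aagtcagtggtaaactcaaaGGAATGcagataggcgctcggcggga
Tead3, minus strand: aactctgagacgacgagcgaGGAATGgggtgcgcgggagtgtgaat
Amotl2, plus strand: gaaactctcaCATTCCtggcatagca
Ankrd1 first site, minus strand: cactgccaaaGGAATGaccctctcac
Ankrd1 second site, minus strand: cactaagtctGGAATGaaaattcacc
Lats2, minus strand: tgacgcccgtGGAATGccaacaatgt
Ccn1, minus strand: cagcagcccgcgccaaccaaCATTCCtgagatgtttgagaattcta

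The *Ankrd1* sites began 210 and 123 bases before the annotated start, the *Yap1* site 141 bases before it, and the *Amotl2* site 65 bases before it. A second *Tead3* window held CATTCC at 2 positions and GGAATG at 1, and the *Tead2* window held neither. *Tead1* and *Tead4* were named only, without a window. Among the 28 Hippo regulators and 25 further targets described below, 8 of 23 and 5 of 16 genes with a window held the letters. A match is a description of these letters, and no binding was measured.

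Between 4 and 9 of the 9 members passed the test in each mutant line, and of those that passed more fell than rose in 5 of the 6 lines. In male R172H, 4 of the 9 members passed the test, 2 higher and 2 lower than male KO, where 40.7% of all genes passed, 20.2% higher and 20.5% lower. In male Y202C, 8 passed, 3 higher and 5 lower, against 73.0% of all genes, 37.6% higher and 35.4% lower. In male Y217C, all 9 passed, 2 higher and 7 lower, against 70.5% of all genes, 34.9% higher and 35.6% lower.

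In female R172H, 8 members passed, 2 higher and 6 lower, against 69.7% of all genes, 34.4% higher and 35.3% lower. In female Y202C, all 9 passed, 2 higher and 7 lower, against 68.6% of all genes, 34.3% higher and 34.3% lower. In female Y217C, 5 passed, 1 higher and 4 lower, against 56.7% of all genes, 28% higher and 28.7% lower. The share of members called was close to the share of all genes in male R172H and female Y217C. The median log2 fold change over the members ran from -0.05 in male R172H to -0.52 in male Y217C, while the median over all genes stayed between -0.01 and 0.01.

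**Figure D1:**
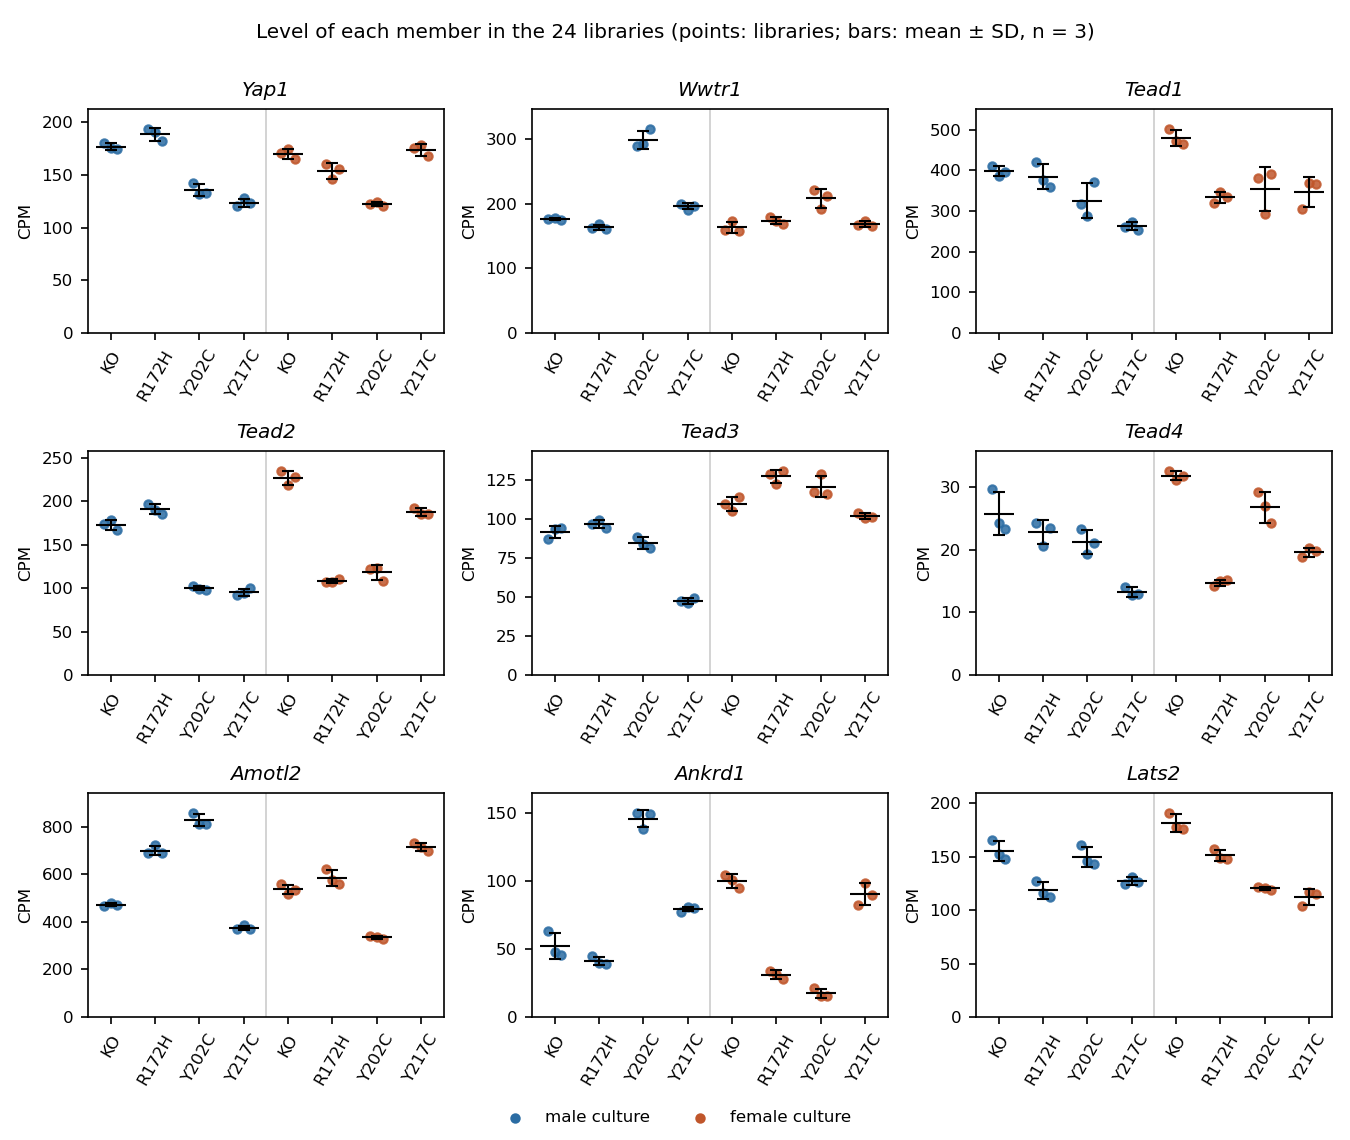
Level of each member in CPM (vertical axis from 0) in every library, by line, with male lines in blue on the left of each panel and female lines in orange on the right. Points are libraries and bars are the mean ± SD of 3 libraries; *Ankrd1* and *Amotl2* are highest in male Y202C and lowest in female Y202C.

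The 2 coactivators went in opposite directions in the Y202C lines. *Yap1* (chr9:7931999-8004596, minus strand, GRCm38) had the smallest spread between lines of the 9 members, with a highest line mean only 1.54 times the lowest, and 19.4% of all genes had a smaller range of line means. It stood at 180.3, 175.9, and 174.6 CPM in male KO, at 142.6, 132.3, and 132.6 CPM in male Y202C, and at 120.5, 127.9, and 123.0 CPM in male Y217C. In the female culture it stood at 170.5, 174.7, and 165.1 CPM in KO and at 122.5, 124.5, and 120.3 CPM in Y202C. The libraries of these 3 mutant lines did not overlap with those of their KO, and *Yap1* fell by 0.38 (SE 0.05, adjusted p = 7.25e-08), 0.52 (SE 0.05, adjusted p = 5.14e-10), and 0.47 (SE 0.05, adjusted p = 3.06e-09) on the log2 scale.

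In the other mutant lines the differences of *Yap1* were smaller. It fell by 0.14 on the log2 scale in female R172H (adjusted p = 0.00799), a call lost without female R172H replicate 2 (-0.10, adjusted p = 0.0657). In male R172H, which had the highest mean of the 8 lines at 188.7 CPM, the difference from KO was 0.09 (adjusted p = 0.108), and in female Y217C it was 0.03 (adjusted p = 0.562). In the order of line means, male R172H, male KO, female Y217C, and female KO followed each other at 170.1 to 188.7 CPM without a step between neighbours that passed the test. Female R172H at 154.1 CPM and male Y202C at 135.8 CPM each differed from the line above, and male Y217C and female Y202C at the bottom overlapped.

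*Wwtr1* (chr3:57455649-57575910, minus strand), which encodes TAZ, rose where *Yap1* fell in the Y202C lines. It stood at 176.5, 178.1, and 175.4 CPM in male KO and at 289.0, 292.5, and 315.8 CPM in male Y202C. In the female culture it stood at 160.3, 172.9, and 157.6 CPM in KO and at 221.6, 192.5, and 211.6 CPM in Y202C. Neither pair of lines overlapped, and the rise was 0.76 (SE 0.05, adjusted p = 2.57e-12) in males and 0.35 (SE 0.05, adjusted p = 1.92e-06) in females on the log2 scale, with an interaction of 0.41 (SE 0.07, adjusted p = 2.29e-05).

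A smaller rise of 0.15 in male Y217C passed the test (adjusted p = 0.011) but not without male Y217C replicate 1 (0.13, adjusted p = 0.0564). The differences in male R172H (-0.11, adjusted p = 0.0987), female R172H (0.09, adjusted p = 0.119), and female Y217C (0.05, adjusted p = 0.466) did not pass. The first passed under 3 alternatives and the second under 3, counting 1 left-out library. Male Y202C thus stood alone at the top of the order with 299.1 CPM, female Y202C and male Y217C overlapped below it, and the 5 other lines lay between 163.6 and 176.7 CPM, with no step between neighbours among them that passed the test.

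Per kb of exon, the ratio of *Wwtr1* to *Yap1* was highest in 3 mutant lines. The ratio was 1.93 ± 0.03 (SD, n = 3) in male KO and 1.86 ± 0.05 (SD, n = 3) in female KO. It was 4.27 ± 0.34 (SD, n = 3) in male Y202C, 3.07 ± 0.16 (SD, n = 3) in male Y217C, and 3.30 ± 0.27 (SD, n = 3) in female Y202C, and no library of these 3 lines overlapped with a KO library. Female R172H, at 2.19 ± 0.11, also lay above every KO library, with libraries from 2.10 to 2.31. In male R172H the ratio was 1.69 ± 0.05 and in female Y217C 1.88 ± 0.04 (SD, n = 3 each). The summed level of both genes was 56.1 ± 0.5 CPM per kb in male KO and 54.4 ± 0.5 in male Y217C, and stood higher, at 77.3 ± 2.7, in male Y202C (SD, n = 3 each). These ratios take the summed length of all annotated exons, and with the longest transcript the ratio in male KO became 1.12, so the absolute ratio of the RNAs depends on that choice while the order of the lines does not.

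**Figure D2:**
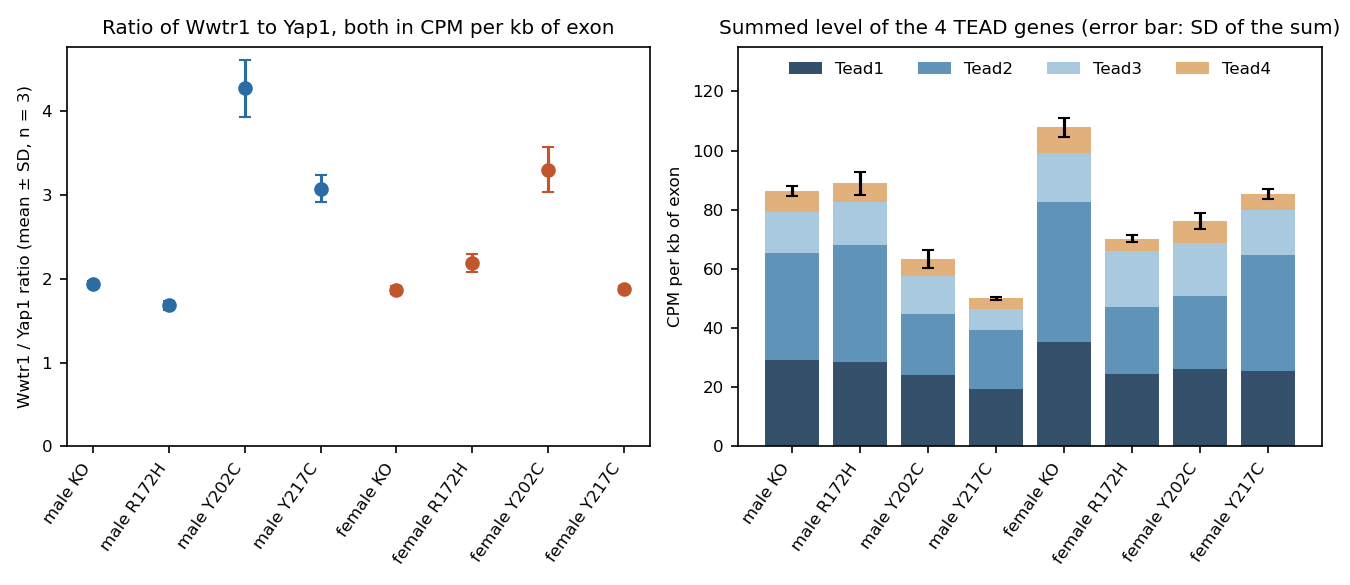
Left, the ratio of *Wwtr1* to *Yap1* in CPM per kb of exon by line, mean ± SD of 3 libraries, which is highest in male Y202C at 4.27 and between 1.69 and 2.19 in both KO lines, both R172H lines, and female Y217C. Right, the levels of the 4 TEAD genes in CPM per kb of exon stacked by line, with the SD of their sum, which falls from 86.2 in male KO to between 49.4 and 50.5 in the male Y217C libraries.

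TEAD RNA was lower than in KO in 5 of the 6 mutant lines. Summed per kb of exon over the 4 genes, it was 86.2 ± 1.6 CPM per kb in male KO and 63.3 ± 3.1 in male Y202C (SD, n = 3 each), and its libraries lay between 49.4 and 50.5 in male Y217C. It was 107.9 ± 3.2 in female KO, 70.3 ± 1.2 in female R172H, 76.2 ± 2.7 in female Y202C, and 85.3 ± 1.7 in female Y217C (SD, n = 3 each). The libraries of each of these mutant lines lay below those of their KO, while male R172H, at 88.9 ± 3.8 (SD, n = 3), overlapped with male KO. *Tead2* and *Tead1* held the largest shares of TEAD RNA in all 8 lines, and *Tead4* the smallest, from 5.84% to 9.78%. This order used the summed exon length, and with the length of the longest transcript *Tead3* had the largest share in female R172H, at 34.6%, and exceeded *Tead2* in female Y202C, at 30.8% against 30.4%.

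*Tead2* (chr7:45215753-45233644, plus strand) had the largest fall per kb of exon in 4 of these 5 lines. In female Y217C *Tead1* fell more, from 35.3 to 25.5 CPM per kb against 47.4 to 39.1 for *Tead2* (line means). This order favours abundant genes. On the log2 scale *Tead4* fell more than *Tead2* in female Y217C (-0.70 against -0.28) and male Y217C (-0.95 against -0.86, with *Tead3* at -0.95). In female R172H *Tead4* and *Tead2* were close, at -1.11 and -1.07. *Tead2* stood at 173.5, 178.4, and 167.0 CPM in male KO, at 102.5, 99.47, and 97.54 CPM in male Y202C, and at 91.83, 94.12, and 99.49 CPM in male Y217C. In the female culture it fell from 234.4, 218.6, and 227.9 CPM in KO to 106.6, 107.5, and 110.3 CPM in R172H and to 122.1, 123.6, and 108.0 CPM in Y202C. These 4 mutant lines were the 4 lowest of the 8, none of their libraries reached a KO library, and the log2 fold changes were -0.79 (adjusted p = 8.04e-13), -0.86 (adjusted p = 1.76e-13), -1.07 (adjusted p = 3.69e-15), and -0.95 (adjusted p = 6.71e-14), each with an SE of 0.05.

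In female Y217C *Tead2* fell by 0.28 on the log2 scale (adjusted p = 5.12e-05). In male R172H it was higher than in KO by 0.14 (adjusted p = 0.0264), but this call was lost without any of male KO replicate 1 (0.14, adjusted p = 0.0563), male KO replicate 3 (0.12, adjusted p = 0.111), male R172H replicate 1 (0.12, adjusted p = 0.0977), or male R172H replicate 2 (0.14, adjusted p = 0.0568). Upper quartile factors also removed it (0.12, adjusted p = 0.0615). The change of *Tead2* from KO to the R172H line differed between the cultures, with an interaction of 1.21 (SE 0.07, adjusted p = 4.79e-13). Of all genes, 58.0% passed this interaction. As a share of TEAD RNA per kb, *Tead2* went from 43.9% ± 0.3 in female KO to 32.2% ± 0.2 in female R172H and from 41.9% ± 1.1 in male KO to 33.0% ± 1.9 in male Y202C (SD, n = 3 each). The gene *Cd37* overlaps the same locus on the opposite strand but was not among the genes of the deposited count table.

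*Tead1* (chr7:112679318-112906807, plus strand) varied more between the libraries of a line. It stood at 410.4, 386.3, and 395.6 CPM in male KO and at 261.4, 272.5, and 254.3 CPM in male Y217C, the lowest line. In female KO, the highest line, it stood at 501.1, 472.3, and 463.9 CPM, above every library of the other 7 lines. It fell by 0.60 (SE 0.09, adjusted p = 5.55e-06) on the log2 scale in male Y217C.

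In the female mutants *Tead1* fell by 0.52 in R172H, 0.43 in Y202C, and 0.47 in Y217C (SE 0.09 each; adjusted p = 3.16e-05, 0.000296, and 0.000194). A fall of 0.29 in male Y202C (adjusted p = 0.00839) was lost without male Y202C replicate 2 (-0.21, adjusted p = 0.0689). Between the top and the bottom of the order, the 6 lines from male KO at 397.5 CPM to male Y202C at 325.2 CPM overlapped with their neighbours.

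*Tead3* (chr17:28331671-28350817, minus strand) was lowest in male Y217C. It stood at 87.14, 93.73, and 94.35 CPM in male KO and at 47.21, 45.96, and 49.61 CPM in male Y217C, a fall of 0.95 on the log2 scale (SE 0.05, adjusted p = 3.99e-14). No library of the 7 other lines was below 81.34 CPM. It was the one TEAD gene higher than KO in a female mutant line, with a rise of 0.22 in R172H (adjusted p = 0.000482) from 109.5, 105.3, and 114.1 to 129.1, 122.6, and 130.7 CPM.

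The Y202C effects on *Tead3* were small and opposite in sign, a fall of 0.12 in males (adjusted p = 0.0432) and a rise of 0.14 in females (adjusted p = 0.0164). The first was lost without male KO replicate 2 (-0.10, adjusted p = 0.126) or replicate 3 (-0.09, adjusted p = 0.144), or male Y202C replicate 2 (-0.11, adjusted p = 0.0948) or replicate 3 (-0.09, adjusted p = 0.161), and reached -0.22 with upper quartile scaling. The second was lost without female KO replicate 2 (0.11, adjusted p = 0.0846) or female Y202C replicate 2 (0.09, adjusted p = 0.112).

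*Tead4* (chr6:128224288-128300823, minus strand) had the lowest RNA level of the 4. It stood at 29.78, 24.35, and 23.27 CPM in male KO and at 14.14, 12.75, and 12.98 CPM in male Y217C. In the female culture it stood at 32.59, 31.24, and 31.74 CPM in KO and at 14.22, 14.98, and 15.12 CPM in R172H. These 2 mutant lines were the lowest of the 8 and did not overlap with their KO, with falls of 0.95 (SE 0.09, adjusted p = 1.01e-09) and 1.11 (SE 0.09, adjusted p = 6.53e-11) on the log2 scale.

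*Tead4* also fell by 0.70 in female Y217C (SE 0.09, adjusted p = 3.28e-07). Smaller falls in male Y202C (-0.28, adjusted p = 0.00638) and female Y202C (-0.25, adjusted p = 0.0133) were lost without male KO replicate 1 (-0.16, adjusted p = 0.0871) and female Y202C replicate 3 (-0.16, adjusted p = 0.136). The difference in male R172H was -0.18 (adjusted p = 0.107).

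*Ankrd1* (chr19:36111961-36120099, minus strand), which encodes a nuclear ankyrin repeat protein induced by stretch in heart muscle, varied most of the 9 members. The highest line mean was 8.38 times the lowest, and 86.9% of all genes had a smaller range of line means. It stood at 63.08, 47.7, and 45.7 CPM in male KO, at 150.1, 138.6, and 149.5 CPM in male Y202C, and at 77.68, 80.7, and 80.36 CPM in male Y217C. In the female culture it stood at 104.7, 101.2, and 94.87 CPM in KO, at 34.12, 31.33, and 27.82 CPM in R172H, and at 21.05, 15.57, and 15.64 CPM in Y202C. The same mutation thus marked both ends of the order, with every male Y202C library above and every female Y202C library below all others.

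*Ankrd1* was 2.80-fold higher than KO in male Y202C (log2 fold change 1.49, SE 0.11, adjusted p = 1.14e-11) and 5.78-fold lower in female Y202C (log2 fold change -2.53, SE 0.12, adjusted p = 4.08e-15). The interaction between mutation and culture was 4.02 on the log2 scale (SE 0.16, adjusted p = 1.75e-16), in a contrast where 68.0% of all genes passed. *Ankrd1* fell 3.23-fold in female R172H (-1.69, SE 0.11, adjusted p = 1.90e-12) and rose 1.53-fold in male Y217C (0.61, SE 0.11, adjusted p = 2.16e-05). In female Y217C its libraries at 82.36, 98.6, and 89.8 CPM overlapped with KO (-0.15, adjusted p = 0.23).

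The KO lines themselves differed in *Ankrd1*, with male KO 1.93-fold lower than female KO (-0.94, SE 0.11, adjusted p = 2.20e-07). Compared directly, male Y202C exceeded female KO by 0.54 (adjusted p = 7.14e-05). The fall in male R172H, to 44.95, 39.41, and 39.37 CPM (-0.34, adjusted p = 0.0156), rested on single libraries. It was -0.18 (adjusted p = 0.184) without male KO replicate 1, the highest of that line, -0.30 (adjusted p = 0.0621) without male R172H replicate 2, and -0.30 (adjusted p = 0.0613) without male R172H replicate 3.

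*Amotl2* (chr9:102716672-102733418, plus strand) was the most abundant member per kb of exon, at 53.3 to 131.6 CPM per kb across the line means. It stood at 465.1, 479.2, and 471.6 CPM in male KO, at 687.8, 722.4, and 689.6 CPM in R172H, at 857.2, 813.4, and 812.4 CPM in Y202C, and at 370.4, 385.4, and 368.4 CPM in Y217C. In the female culture it stood at 558.4, 517.8, and 532.6 CPM in KO, at 340.4, 337.1, and 327.3 CPM in Y202C, and at 733.1, 715.9, and 697.7 CPM in Y217C. Like *Ankrd1*, it was highest in male Y202C and lowest in female Y202C, but the Y217C lines were on opposite sides of their KO.

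The log2 fold changes of *Amotl2* in males were 0.57 (SE 0.05, adjusted p = 8.61e-10) in R172H, 0.81 (SE 0.05, adjusted p = 1.32e-13) in Y202C, and -0.33 (SE 0.05, adjusted p = 8.41e-07) in Y217C. In females they were -0.68 (SE 0.05, adjusted p = 6.82e-12) in Y202C and 0.42 (SE 0.05, adjusted p = 5.87e-08) in Y217C. Female R172H, at 624.5, 574.6, and 557.7 CPM, overlapped with KO, and its difference of 0.13 (adjusted p = 0.018) was lost without female KO replicate 2 (0.10, adjusted p = 0.0885) or female R172H replicate 1 (0.08, adjusted p = 0.158). Upper quartile factors also removed this call (0.10, adjusted p = 0.0518). The changes of *Amotl2* in the Y202C and Y217C lines had opposite signs in the 2 cultures. The interactions were 1.49 (SE 0.07, adjusted p = 1.32e-15) and -0.75 (SE 0.07, adjusted p = 7.02e-10), and 54.8% of all genes passed the second contrast.

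*Lats2* (chr14:57689662-57758388, minus strand), the kinase that inhibits YAP and TAZ, was lower than KO in 5 mutant lines and higher in none. It stood at 190.5, 177.7, and 175.8 CPM in female KO, at 121.9, 120.2, and 118.5 CPM in female Y202C, and at 103.4, 117.3, and 115.1 CPM in female Y217C. In males it stood at 165.7, 152.6, and 147.5 CPM in KO and at 126.8, 116.1, and 112.1 CPM in R172H. None of these mutant lines overlapped with their KO, and the falls were 0.59 (SE 0.06, adjusted p = 5.09e-09), 0.70 (SE 0.06, adjusted p = 6.99e-10), and 0.39 (SE 0.06, adjusted p = 1.19e-05) on the log2 scale.

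*Lats2* also fell by 0.29 in male Y217C (adjusted p = 0.00015) and by 0.26 in female R172H (adjusted p = 0.000364). In male Y202C, where *Ankrd1* and *Amotl2* were highest, the libraries at 160.4, 146.1, and 142.8 CPM overlapped with KO (-0.05, adjusted p = 0.441). The 3 targets took different courses. *Ankrd1* and *Amotl2* rose together in male Y202C and fell together in female Y202C. They passed the test in opposite directions in the other 3 lines where both passed. *Ankrd1* was higher and *Amotl2* lower in male Y217C, and the reverse held in both R172H lines. The reverse rested on calls lost without single libraries, that of *Ankrd1* in male R172H and that of *Amotl2* in female R172H. *Lats2* did not rise with either. The processed pseudogene *Gm20430* lies on the opposite strand within *Lats2* and was counted at a mean of 6.68 CPM, and the sources used here do not state whether counting used strand.

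**Figure D3:**
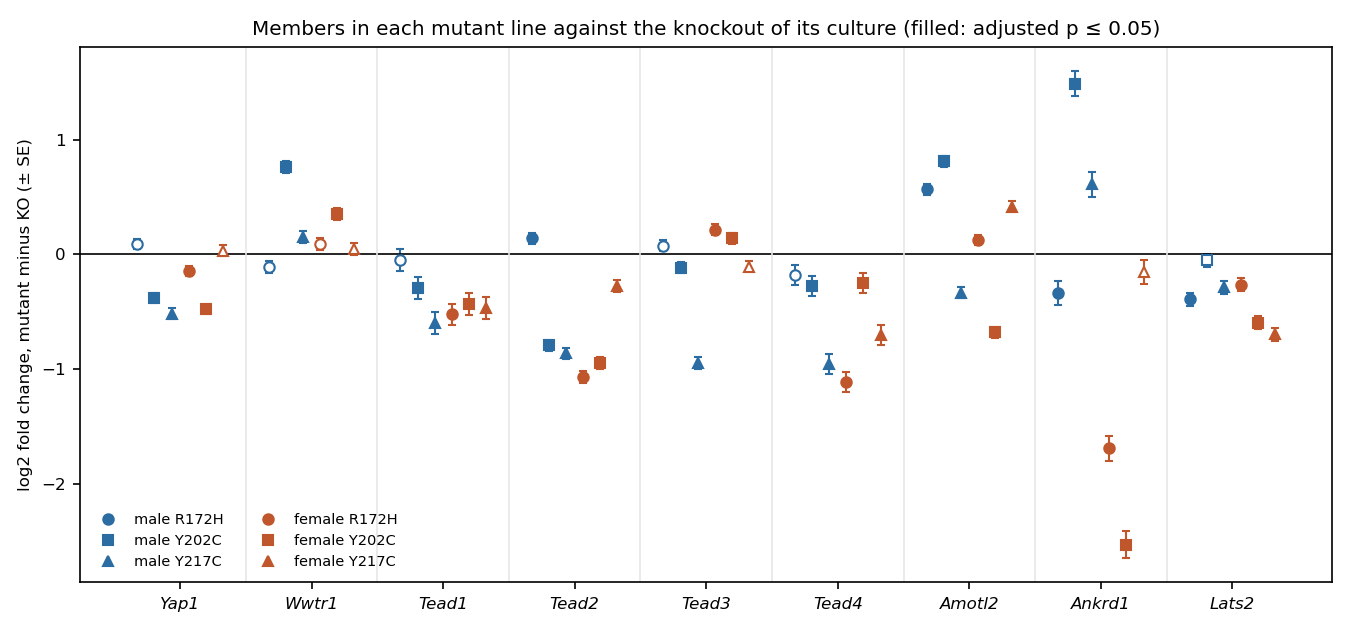
Log2 fold change ± SE of each member in each mutant line against the KO of its culture (vertical axis), with male lines in blue, female lines in orange, and one symbol per mutation. Filled symbols passed an adjusted p of 0.05; *Ankrd1* spans 1.49 in male Y202C to -2.53 in female Y202C, and *Tead2* and *Tead4* lie mostly below 0.

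The KO lines of the 2 cultures already differed in 7 of the 9 members, each lower in the male line, where 31.1% of all genes passed, 17.2% higher and 13.8% lower in males. Besides *Ankrd1*, these were *Tead2* (-0.39, adjusted p = 1.12e-06), *Tead4* (-0.31, adjusted p = 0.00756), *Tead1* (-0.27, adjusted p = 0.0315), *Tead3* (-0.26, adjusted p = 0.000314), *Lats2* (-0.22, adjusted p = 0.00488), and *Amotl2* (-0.18, adjusted p = 0.00339). *Yap1* (0.06, adjusted p = 0.381) and *Wwtr1* (0.11, adjusted p = 0.104) did not pass, but *Wwtr1* passed with limma (0.11, adjusted p = 0.0138), with upper quartile factors (0.15, adjusted p = 0.0293), with only the lines compared (0.12, adjusted p = 0.0322), and without female KO replicate 2 (0.15, adjusted p = 0.0471). The *Tead1* call was lost without male KO replicate 2 (-0.25, adjusted p = 0.101), male KO replicate 3 (-0.27, adjusted p = 0.0801), female KO replicate 1 (-0.24, adjusted p = 0.114), or female KO replicate 2 (-0.28, adjusted p = 0.0598), and with upper quartile factors (-0.23, adjusted p = 0.0553). The *Tead4* call was lost without male KO replicate 3 (-0.24, adjusted p = 0.0663). Each KO line enters 3 comparisons, so the male and female effects above start from these different levels.

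The matrix-associated targets *Ccn1* and *Ccn2*, which encode the secreted proteins CYR61 and CTGF and are the usual partners of *Ankrd1* in reports of YAP activity, were read beside the members. *Ccn1* stood at 1077, 894.7, and 907.7 CPM in male KO and at 1530, 1594, and 1602 CPM in male Y202C, the highest line mean. It rose in all 3 male mutants, by 0.52 in R172H (adjusted p = 1.47e-05), 0.71 in Y202C (adjusted p = 1.98e-08), and 0.24 in Y217C (adjusted p = 0.0091). In females it fell by 0.27 in R172H (adjusted p = 0.00412) and 0.41 in Y202C (adjusted p = 8.16e-05), with an interaction for Y202C of 1.12 (SE 0.11, adjusted p = 4.24e-09).

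*Ccn2* passed the test in 2 lines, both female. It stood at 957.0, 939.7, and 878.0 CPM in female KO, at 376.0, 339.3, and 330.3 CPM in R172H, and at 432.0, 441.2, and 406.6 CPM in Y202C, which are falls of 1.41 (SE 0.11, adjusted p = 1.48e-10) and 1.12 (SE 0.11, adjusted p = 9.05e-09) on the log2 scale. In male Y202C the difference was -0.16 (adjusted p = 0.223), so *Ccn2* did not share the rise of *Ankrd1* and *Ccn1* there. *Ankrd1*, *Ccn1*, and *Ccn2* all fell in female R172H and female Y202C.

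All 28 listed genes of the Hippo pathway upstream of or beside YAP and TAZ were in the table. In males 9 rose and 6 fell in R172H, 10 rose and 13 fell in Y202C, and 6 rose and 16 fell in Y217C. In females 6 rose and 15 fell in R172H, 6 rose and 14 fell in Y202C, and 7 rose and 9 fell in Y217C. In the same order, the 15, 23, 22, 21, 20, and 16 regulators called stood beside 40.7%, 73.0%, 70.5%, 69.7%, 68.6%, and 56.7% of all genes. The share of the list was close to that of all genes in female Y202C and female Y217C. The median log2 fold change of the list was lowest in male Y217C at -0.30 and highest in male R172H at 0.03. Among the core kinases *Lats1*, the paralog of *Lats2*, passed the test in 1 of the 6 comparisons and its highest line mean was 1.20 times its lowest, against 1.62 times for *Lats2*.

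The widest ranges among the regulators belonged to the giant cadherins *Fat4* and *Dchs1*, which bind each other on neighbouring cells, to *Amot*, a paralog of *Amotl2*, and to *Wwc1*, which encodes the LATS activator KIBRA. *Fat4* fell by 2.96 on the log2 scale in male Y202C (adjusted p = 1.74e-15) and rose by 1.34 in female Y202C (adjusted p = 5.36e-10), a course opposite to that of *Ankrd1* in both cultures. *Dchs1* fell in both Y202C lines, by 1.18 in males (adjusted p = 2.45e-11) and 2.41 in females (adjusted p = 3.34e-16). *Amot* was 301.3 to 325.8 CPM in female R172H against 83.5 to 87.6 CPM in female KO, a rise of 1.87 (adjusted p = 1.75e-19), where *Amotl2* changed by 0.13.

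*Wwc1* rose by 1.43 in male Y217C (adjusted p = 6.98e-16). *Ajuba*, a LIM protein that restrains LATS, and *Map4k4*, a kinase that activates LATS, were the 2 regulators that fell in all 6 comparisons. *Ajuba* fell by between 0.29 in male R172H and 1.18 in female Y217C, and *Map4k4* by between 0.39 in male R172H and 0.94 in female Y217C.

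Of 25 further targets of YAP and TAZ, *Ajuba* and *Ptpn14* are also regulators and were counted in both lists. In males 7 rose and 7 fell in R172H, 10 rose and 8 fell in Y202C, and 10 rose and 12 fell in Y217C. In females 6 rose and 16 fell in R172H, 4 rose and 17 fell in Y202C, and 3 rose and 16 fell in Y217C. In the same order, the 14, 18, 22, 22, 21, and 19 of 25 called stood beside the shares of all genes given for the regulators, and in male Y202C the share of the list was close to the 73.0% of all genes. The list median lay between -0.37 and -0.24 in the 3 female mutants and in males went from -0.23 in Y217C to 0.05 in Y202C, beside medians near 0 over all genes.

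The targets with the widest ranges did not follow one course. *Igfbp3*, a secreted binding protein of insulin-like growth factors, stood at 412.0 to 471.4 CPM in male Y217C and at 124.4 to 146.5 CPM in male Y202C, against 23.7 to 25.6 CPM in male KO, and did not exceed 3.12 CPM in any female library. It rose by 4.17 in male Y217C (adjusted p = 2.00e-18) and fell by 6.73 in male R172H (adjusted p = 2.49e-17) on the log2 scale, to 0.126 to 0.320 CPM. *Gadd45a*, a stress gene that p53 also activates, rose by 2.91 in male Y202C (adjusted p = 1.27e-17) and fell by 0.39 in female Y202C (adjusted p = 0.00175).

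*Fjx1*, a kinase of the Golgi, fell by 1.84 in female R172H (adjusted p = 1.87e-14) and rose by 0.56 in male Y202C (adjusted p = 4.53e-06). *Nt5e*, the surface enzyme CD73, fell by 1.34 in female R172H (adjusted p = 2.11e-11) and rose by 0.78 in male R172H (adjusted p = 3.56e-07). *Ccdc80*, a matrix protein gene, was the one further target that rose in all 6 comparisons, by between 0.28 in male R172H and 1.24 in male Y202C.

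**Figure D4:**
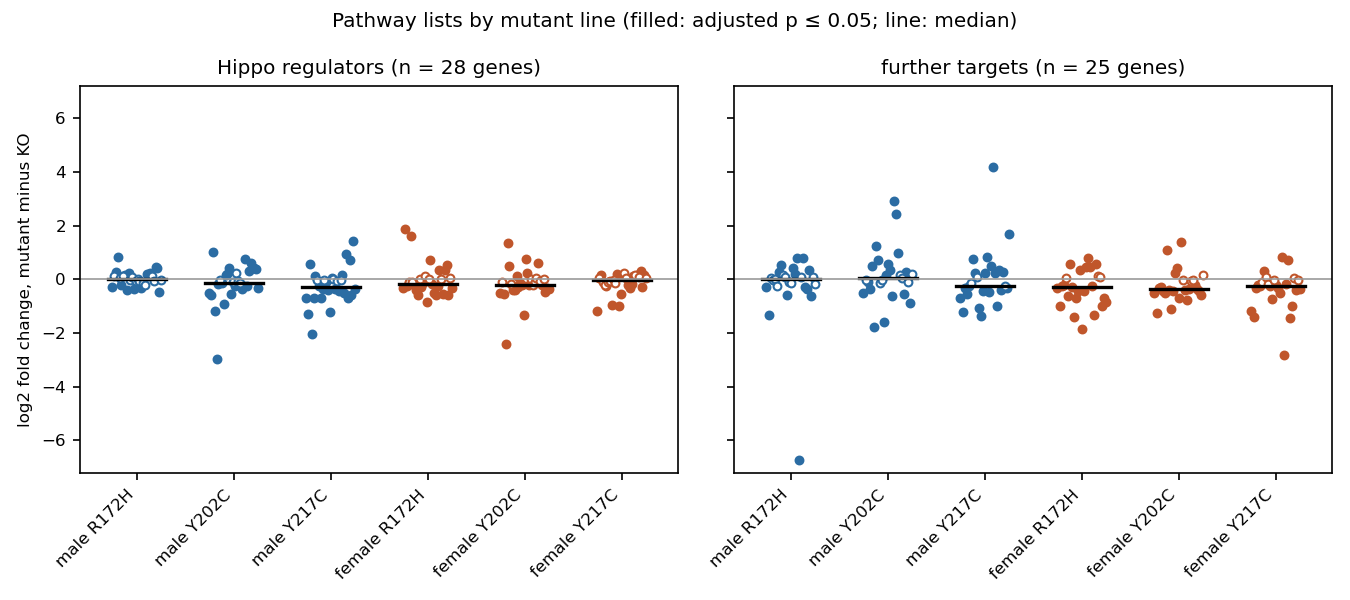
Log2 fold change of each of 28 Hippo regulators (left) and 25 further targets (right) in each mutant line against its KO, with male lines in blue, female lines in orange, filled points past an adjusted p of 0.05, and the list median as a line. The median of the further targets is between -0.37 and -0.24 in the 3 female lines; the lowest point, in male R172H, is *Igfbp3* at -6.73.

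The marker sums moved with some of these levels and not with others. The 8 fibroblast, meningeal, and mural markers summed to 10240 to 12410 CPM in male Y202C, the lowest of the 8 lines, where *Wwtr1*, *Amotl2*, and *Ankrd1* were highest, against 27760 to 32670 CPM in male KO. They summed to 38370 to 44860 CPM in female R172H and 33790 to 39890 CPM in female Y202C, against 24740 to 26600 CPM in female KO, and these are the 2 lines with the lowest *Ankrd1*. Female Y202C also had the highest *Wwtr1* after male Y202C, at 208.6 CPM, so *Wwtr1* rose both with a lower and with a higher sum. All 8 markers of the list were in the table. In male Y202C the lower sum came mostly from *Col1a1*, at 3361 against 17294 CPM in KO, and *Col1a2*, at 5194 against 10262 CPM (line means), while *Acta2* was 2326 against 2235 CPM, *Pdgfrb* 260 against 267 CPM, and *Dcn* 4.86 against 2.70 CPM. *Rgs5* was at or near 0 in male Y202C (0 to 0.061 CPM), and *Lum* stood below 1 CPM in every line except female R172H. The astrocyte markers summed to 196.1 to 206.7 CPM in male Y202C, the lowest line, against 337.5 to 362.5 CPM in male KO, and to 614.4 to 648.9 CPM in female R172H, the highest line. In male Y202C *Sox9*, *Gja1*, and *Slc1a3* were lower than in KO, at 80.0, 81.0, and 6.69 against 150.8, 187.1, and 12.2 CPM. *Aldh1l1*, *Slc1a2*, and *Aqp4* were higher there, at 28.4, 1.79, and 1.77 against 0.63, 0.57, and 0.11 CPM. *Gfap* and *S100b* stood below 1 CPM in both lines. The 4 of 7 oligodendrocyte lineage markers in the table were lowest in male Y217C, the line with the lowest TEAD sum, at 64.3 to 67.7 CPM against 263.6 to 285.9 CPM in male KO. The 3 of 5 neuronal markers summed to 31.3 to 38.2 CPM in female R172H and 42.0 to 56.3 CPM in female Y202C, against 126.4 to 128.5 CPM in female KO. The 2 of 4 endothelial markers reached 42.3 CPM in male KO and at most 14.2 CPM in the other lines, and the 1 of 6 microglial markers reached at most 3.18 CPM. The part of cell composition in the levels of the members was not tested.

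Genes near the members on the chromosome were read as a check of whether a member moved alone. Of all genes, 37.6% rose and 35.4% fell in male Y202C, and 34.4% rose and 35.3% fell in female R172H. Of the 11 other genes of the table within 1 Mb of *Yap1*, 7 rose and 1 fell in male Y202C with a median log2 fold change of 0.69, while *Yap1* itself was at -0.38. Its nearest neighbours were *Birc3*, which fell by 1.16 there (adjusted p = 9.09e-12), and *Cfap300*, which rose by 0.73 (adjusted p = 1.20e-06). Of the 65 genes within 1 Mb of *Tead2*, 32 rose and 19 fell in male Y202C and 27 rose and 15 fell in female R172H. The medians were 0.19 and 0.11, so *Tead2* fell in neighbourhoods whose medians did not.

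*Lats2* went with its neighbours in female Y217C and male R172H. Of all genes, 28.7% fell in female Y217C, 20.5% in male R172H, and 35.6% in male Y217C. In female Y217C 17 of the 20 other genes within 1 Mb fell and 1 rose, with a median of -0.68 beside -0.70 for *Lats2* itself, and its nearest neighbours *Xpo4* and *Sap18* fell by 1.30 (adjusted p = 1.01e-08) and 0.65 (adjusted p = 2.31e-08). In male R172H 12 of the 20 fell and 0 rose, with a median of -0.27 beside -0.39 for *Lats2*. In female Y202C, by contrast, 7 of the 20 rose and 8 fell with a median of -0.05, while *Lats2* was at -0.59. Of all genes, 34.3% rose and 34.3% fell there. The remaining lines also differed from their neighbourhoods. Male Y202C had 3 rising and 12 falling neighbours with a median of -0.34, while *Lats2* was at -0.05. Female R172H had 10 rising and 6 falling, with a median of 0.27 beside -0.26. Male Y217C had 3 rising and 8 falling, with a median of -0.05 beside -0.29. The 8 of 9 genes near *Tead1* that fell in female Y217C had a median of -0.28 over the 9, beside -0.47 for *Tead1*, and in male Y217C 6 of the 9 fell and 2 rose, with a median of -0.48 beside -0.60. Gene copy number in these regions was not tested.

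In the Y202C lines *Ankrd1* and *Amotl2* changed more than the medians of their neighbourhoods. In male Y202C the 9 genes within 1 Mb of *Ankrd1* had a median of 0.29, with *Rpp30* at 0.89 and *Pcgf5* at 0.95, beside 1.49 for *Ankrd1*, and in female Y202C a median of -0.21, with *Rpp30* at -0.38 and *Pcgf5* at -0.32, beside -2.53. The 9 genes near *Amotl2* had medians of -0.08 and -0.15 in these 2 lines, beside 0.81 and -0.68. Male Y217C was less distinct, with *Pcgf5* at 0.94 beside 0.61 for *Ankrd1*. The median near *Amotl2* was -0.24 there, beside -0.33 for *Amotl2* itself. Near *Wwtr1* the medians over 10 genes were -0.07 in male Y202C and -0.02 in female Y202C.

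Across the 8 line means of log2 CPM, *Yap1* went most closely with *Tead2* among the members (Pearson r = 0.85), and *Tead1* with *Tead4* (r = 0.86), while *Yap1* and *Wwtr1* had r = -0.64. The lines share cultures and KO references, so these are descriptions over 8 points. Among 10471 genes with a line mean of at least 10 CPM, the 3 most like *Yap1* were *Gm11942*, *Lrrc15*, and *Nfkbiz* (r = 0.967, 0.964, and 0.964), and the 3 most like *Wwtr1* were *Rnf185*, *Pex16*, and *Ccdc191* (r = 0.990, 0.986, and 0.981). *Ankrd1* was followed most closely by *Shtn1*, *Cdk5rap2*, and *Rbm38* (r = 0.971, 0.947, and 0.945) and *Amotl2* by *Ube2q2*, *Eef1a1*, and *Rpl14* (r = 0.976, 0.973, and 0.965). With so few points, the gene ranked 100 still reached r = 0.86 for *Yap1* and *Ankrd1*, 0.91 for *Wwtr1*, and 0.84 for *Amotl2*.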

How the data were processed

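Poly(A) RNA of 24 libraries was sequenced by the authors, aligned with STAR 2.5.1a to the mouse Ensembl 76 assembly, and counted per gene with featureCounts from reads with a single, unambiguous placement. The authors deposited raw read counts for 14427 genes, and whether counting used strand is not given in the sources used here. Groups came from the sample labels. Symbols were matched for 14350 genes with the GRCm38 annotation, and promoters came from RefSeq (GRCm38.p6).

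Counts were fitted with edgeR 4.0.16 in R 4.3.3 (TMM factors, glmQLFit and glmQLFTest, 1 mean per line over all 24 libraries), with Benjamini-Hochberg adjustment over 14427 genes and calls at an adjusted p of 0.05 or below. Requiring 2 or more libraries above 1 CPM left out 0 genes. SE was the absolute log2 fold change over the square root of F. Interactions were male minus female effects. Levels were compared between genes only per kb of exon. The depth of 52787288 to 136503809 counts per library left the spread between libraries as the main error of the members.

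All 9 members, *Ccn1*, and *Ccn2* were named. From each pathway list, the 4 genes with the widest range of line means and any gene called in the same direction in all 6 comparisons were named, and for 4 members the 3 genes with the highest correlation. The members and lists were chosen with earlier results of these data known. The alternatives were DESeq2 1.42.0, limma 3.58.1 (voomWithQualityWeights), other scaling factors and filters, stricter thresholds, leaving out ribosomal protein genes, only the lines compared, a replicate block, and leaving out each library. The scripts were tested on simulated data. Protein sequences were not used here, so the identity of paralogs was not analysed.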

Additional observations from a re-analysis of the deposited data

Results flagged for a closer look

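The change of a member from KO to mutant line differed between the male and the female culture in 18 of 27 interaction tests. These used edgeR's quasi-likelihood test (male minus female effect on the log2 scale) with Benjamini-Hochberg adjustment over all genes. Of the 9 members, 7 passed for R172H, 5 for Y202C, and 6 for Y217C, where 58.0%, 68.0%, and 54.8% of all genes passed, and the share of members for Y202C lay below that of all genes. Culture and sex cannot be told apart. The male and female lines of a mutation were also made separately and differed in *Trp53* RNA. Their line means were 2323.7 CPM in male and 593.1 CPM in female Y202C, and 1215.3 and 3708.9 CPM in Y217C. For R172H they were closer, at 2286.8 and 1955.6 CPM. The interactions therefore cannot separate sex or culture from *Trp53* level or from other differences between the lines.

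For R172H, *Ankrd1* differed by 1.35 (adjusted p = 6.09e-08), *Tead2* by 1.21 (adjusted p = 4.79e-13), and *Tead4* by 0.93 (adjusted p = 6.24e-07), all of which had fallen in the female line. *Tead1* differed by 0.48 (adjusted p = 0.00382), *Amotl2* by 0.44 (adjusted p = 3.63e-06), and *Yap1* by 0.24 (adjusted p = 0.00321). *Wwtr1* differed by -0.20 (adjusted p = 0.0226), a call lost without female KO replicate 1 (-0.18, adjusted p = 0.0531), female KO replicate 3 (-0.17, adjusted p = 0.0645), or female R172H replicate 1 (-0.17, adjusted p = 0.0629).

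For Y202C, the targets differed in one direction, with *Ankrd1* at 4.02 (adjusted p = 1.75e-16), *Amotl2* at 1.49 (adjusted p = 1.32e-15), and *Lats2* at 0.54 (adjusted p = 3.82e-06). *Wwtr1* differed by 0.41 (adjusted p = 2.29e-05) and *Tead3* by -0.26 (adjusted p = 0.00283).

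For Y217C, *Tead3* differed by -0.84 (adjusted p = 4.10e-10), *Amotl2* by -0.75 (adjusted p = 7.02e-10), *Tead2* by -0.59 (adjusted p = 1.52e-07), and *Yap1* by -0.55 (adjusted p = 1.16e-07). *Ankrd1* differed by 0.76 (adjusted p = 0.000145) and *Lats2* by 0.41 (adjusted p = 0.000197).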

How the results depend on the processing

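Of 1512 log2 fold changes of single members recomputed under the alternatives, 1446 stayed in direction and on their side of the threshold. DESeq2 size factors changed none of the 90 values of single members. Using no filter on low counts could change none, since the filter had left out 0 genes and the fit was the same. Counts of calls were not among the 1512 values and were taken as unchanged within 1.5 times. Counts of calls fell where an absolute log2 fold change above 0.5 was also required. Members called were then 1 in male R172H, 4 in male Y202C, 4 in female R172H, 4 in female Y202C, 2 in female Y217C, 3 and 3 for the R172H and Y202C interactions, and 1 between the KO lines. Hippo regulators called were 1, 9, and 13 in male R172H, Y202C, and Y217C, 9, 8, and 4 in the female lines, 9 and 8 for the R172H and Y217C interactions, and 1 between the KO lines. Further targets called were 7 and 11 in male R172H and Y217C, 12, 9, and 9 in the female lines, 10 and 8 for the R172H and Y217C interactions, and 4 between the KO lines. At an adjusted p of 0.01, 2 members passed in male R172H and 10 Hippo regulators in female Y217C. The members called in male Y217C stayed within 1.5 times at both settings. Shares of all genes at these stricter settings were not computed, so the counts do not show whether the lists differ from other genes.

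Leaving out each library, the members called in male R172H ranged from 2 to 4, with 2 without male KO replicate 1 or male R172H replicate 2, and the Hippo regulators called between the KO lines from 6 to 8, with 6 without male KO replicate 2 and 10 with all libraries. Direction turned only for differences that had not passed the test. These were the Y202C interactions of *Yap1* (-0.043 with upper quartile factors), *Tead1* (-0.023 with limma), and *Tead4* (0.026 with limma, and -0.14 to 0.087 leaving out each library), and *Tead1* in male R172H (-0.11 to 0.0026 leaving out each library). The cause was not tested. Some differences that had not passed did so under alternatives, among them *Wwtr1* in male R172H (-0.13 with upper quartile factors, -0.10 with limma, and -0.12 with only the lines compared) and the R172H interaction of *Tead3* (-0.19 to -0.16 under 6 alternatives, 1 of them without male KO replicate 1, against -0.14). *Tead2* passed for the Y202C interaction with limma (0.18) and without any of 5 libraries (0.17 to 0.19). Upper quartile factors moved the median of all genes by -0.10 in male Y202C and -0.14 for the Y202C interaction, and with them *Lats2* passed the test in male Y202C (-0.15, adjusted p = 0.0157), *Wwtr1* had a Y202C interaction of 0.27, and *Tead3* one of -0.39. Same-numbered libraries had correlations of -0.172 to 0.245, so the numbers were not taken to pair the samples. With a replicate block, 89 of the 90 values of single members stayed on their side of the threshold, and *Tead3* in male Y202C had -0.12 (adjusted p = 0.0574).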
